A study of Mus musculus with 8 samples.

Results

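The unfolded protein response and the folding machinery of the endoplasmic reticulum (ER) are described here through 32 genes, chosen by name and read from the 26874 genes and transcripts that could be tested on these arrays. The 32 comprised the 3 stress sensors and the transcription factor gene Xbp1, 8 genes of the arm that runs through ATF4 and CHOP, 14 ER chaperones and folding factors, 4 genes of ER-associated degradation (ERAD), and Ero1l and Vldlr. All 32 had a probe well above background on all 8 arrays, so none was lost to the filter on dim probes.

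The study asked how sustained low oxygen acts on gene expression in neural stem cells. The cells came from mouse embryos of the OF-1 strain at stage E13.5 and were grown without serum. From the day of isolation, sister cultures were kept either at 5% oxygen (hypoxia in the labels) or at the 21% of air (normoxia). This lasted 2 to 3 passages and no less than 10 days, and the labels name no altered gene in either group. Each condition was measured in 4 experiments, each on different donor embryos, and same-numbered arrays of the 2 conditions were taken as 1 experiment. Values are log2 signal relative to the 75th percentile of each array, and a difference is 5% minus 21% oxygen. They come from cultured cells in bulk, in which fewer cells of a type and less RNA per cell cannot be told apart.

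When unfolded proteins build up in the ER, the sensors IRE1 (gene Ern1), PERK (Eif2ak3) and ATF6 start 3 branches of signalling. IRE1 splices the Xbp1 transcript, PERK slows translation while favouring that of ATF4, and ATF6 is cut to release a transcription factor; together they raise chaperones, folding enzymes and ERAD genes. ATF4 and its targets also answer to other kinases of the integrated stress response, such as the one that senses lack of amino acids, so the ATF4 arm can move without the chaperones. These arrays measured RNA only: translation, cleavage and phosphorylation were not measured, and spliced and unspliced Xbp1 are not separated here.

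Of the 32 genes, only Ero1l and Vldlr passed the test, and both rose at 5% oxygen (limma with the experiment as a block, here the paired fit, Benjamini-Hochberg adjusted over all genes, threshold 0.05). Over all genes the paired fit called 4.25% higher and 1.29% lower. No member was called lower by limma. At an unadjusted p under 0.05 there were 3 members lower, which were Chac1, Herpud1 and Dnajc3, and 4 higher, which were Eif2ak3, Cebpb, Ero1l and Vldlr. Over all 26874 genes, 2047 were lower and 3160 higher at that level, a share close to that among the members. Without the experiment as a block (the unpaired fit), limma called 0 members, against 0.0893% of all genes. At an unadjusted p under 0.05 that fit had 3 members of 32 and 2158 of all 26874 genes. The difference was above 0 in all 4 experiments for 5 members, Eif2ak3, Cebpb, Pdia6, Ero1l and Vldlr, against 15.3% of all genes. It was below 0 in all 4 for another 5, Atf6, Atf5, Dnajc3, Hyou1 and Herpud1, against 12.8% of all genes. The median change over the 32 genes was -0.12, beside 0.03 over all genes tested.

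**Figure D1:**
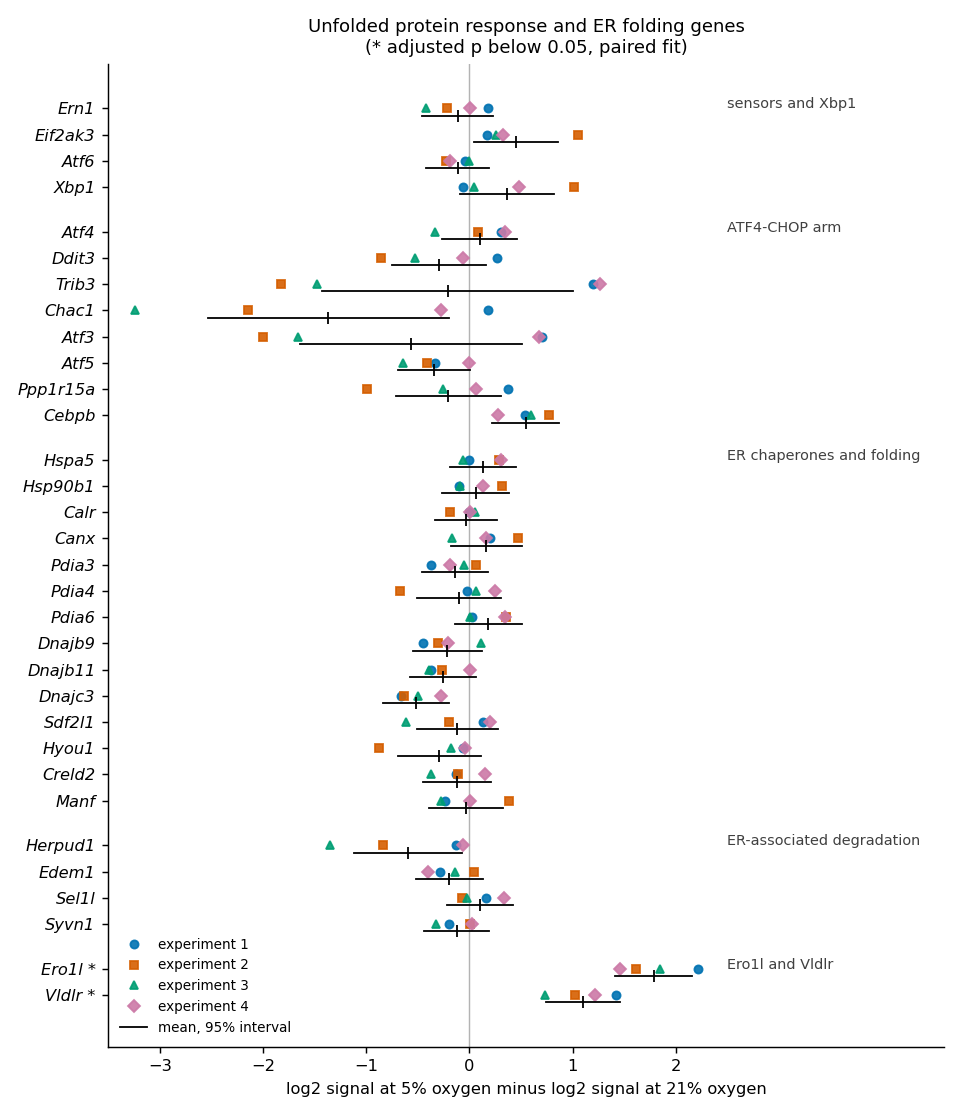
Difference in log2 signal (x axis, 5% minus 21% oxygen) for each of the 32 genes (rows, by role) in each of the 4 experiments (symbols), with the mean and its 95% interval from the paired fit (black). Only Ero1l (1.79) and Vldlr (1.10) are marked as past the threshold, most chaperones lie close to 0, and Trib3, Chac1 and Atf3 spread widest among the experiments.

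None of the 3 sensor genes passed the test. Ern1, the gene of the sensor kinase and nuclease IRE1, had log2 signals of -2.30, -2.53, -2.44 and -2.45 at 21% oxygen in experiments 1 to 4, and of -2.12, -2.75, -2.86 and -2.44 at 5%. The groups overlapped, with both the highest and the lowest values at 5% oxygen, and the difference was -0.11 (SE 0.15, 95% interval -0.46 to 0.23, adjusted p = 0.75 in limma). Atf6, the gene of the membrane-bound factor ATF6, had log2 signals of -1.31, -0.74, -0.67 and -0.86 at 21% oxygen and of -1.35, -0.96, -0.67 and -1.05 at 5%. Its arrays followed the experiment more than the oxygen level, with experiment 1 lowest in both groups. The fitted Atf6 difference was -0.11 (95% interval -0.42 to 0.19, adjusted p = 0.702 in limma).

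Eif2ak3, the gene of the kinase PERK, had log2 signals of 1.38, 1.24, 1.47 and 1.18 at 21% oxygen and of 1.55, 2.30, 1.73 and 1.50 at 5%. Every array at 5% oxygen lay above every array at 21%, and experiment 2 had the widest gap. The Eif2ak3 difference was 0.45 (SE 0.18, 95% interval 0.04 to 0.86), with an unadjusted p of 0.0346 and an adjusted p of 0.21 in limma, so it did not pass.

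Xbp1 encodes the factor whose transcript IRE1 splices. Its log2 signal was 3.78, 3.29, 3.36 and 3.34 at 21% oxygen and 3.72, 4.31, 3.40 and 3.82 at 5%. The groups overlapped: experiments 2 and 4 were higher at 5% oxygen, by 1.02 and 0.48, while experiments 1 and 3 differed by -0.07 and 0.04. The Xbp1 difference over the 4 was 0.37 (95% interval -0.09 to 0.82, adjusted p = 0.361 in limma). The median change of the sensors and Xbp1 was 0.13.

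**Figure D2:**
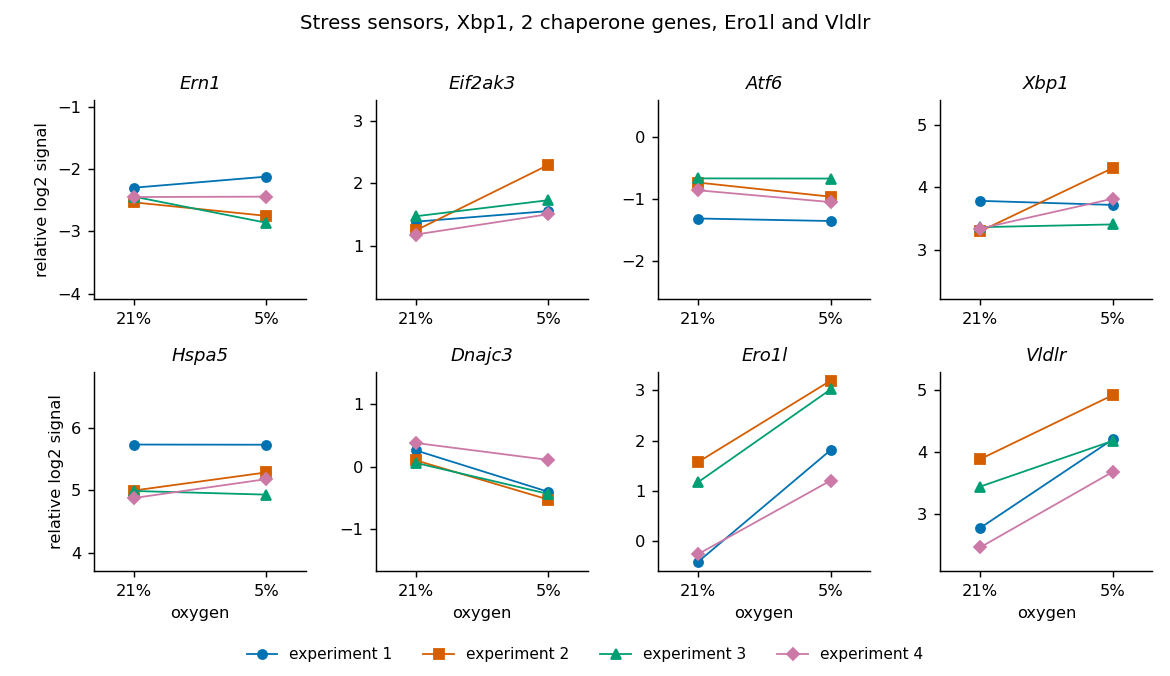
Log2 signal relative to the 75th percentile of the array (y axis) at 21% and 5% oxygen (x axis) for sensor, chaperone and other genes, with lines joining the arrays of each of the 4 experiments. The lines of Ero1l and Vldlr rise in all 4 experiments, whereas those of Ern1, Atf6 and Hspa5 run flat or in both directions.

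The ATF4-CHOP arm holds Atf4 itself, the transcription factor genes Ddit3 (CHOP), Atf3, Atf5 and Cebpb, the pseudokinase gene Trib3, Chac1, whose product degrades glutathione, and Ppp1r15a (GADD34), whose product guides the phosphatase that restarts translation. None of the 8 passed the test in either direction in limma, and 2 had an unadjusted p under 0.05, Cebpb above 0 and Chac1 below. Within this arm the experiments differed more than the oxygen levels did.

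Atf4 had log2 signals of 6.14, 5.91, 5.89 and 5.38 at 21% oxygen and of 6.44, 5.99, 5.55 and 5.72 at 5%. The groups overlapped and the Atf4 difference was 0.10 (95% interval -0.27 to 0.47, adjusted p = 0.797 in limma). A dimmer, second Atf4 probe read otherwise: it differed by 0.23, -1.02, -1.40 and 0.00 in experiments 1 to 4 (mean -0.54, SE 0.27, unadjusted p = 0.0806 in limma). The 2 probes therefore disagreed in experiment 2, where the brighter probe differed by 0.09, and in size in experiment 3, where it differed by -0.34.

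Ddit3 had log2 signals of -1.20, 1.14, 0.33 and -0.99 at 21% oxygen and of -0.93, 0.29, -0.19 and -1.06 at 5%. Experiments 2 and 3 read higher than experiments 1 and 4 in both groups, and the groups overlapped. The Ddit3 difference was -0.29 (95% interval -0.75 to 0.16, adjusted p = 0.477 in limma).

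Chac1, Trib3 and Atf3 were spread wider still. Chac1 had log2 signals of 0.63, 4.85, 4.42 and 0.55 at 21% oxygen and of 0.81, 2.71, 1.18 and 0.28 at 5%. At 21% oxygen the arrays of experiments 2 and 3 stood far above those of experiments 1 and 4. In experiments 2 and 3 Chac1 differed by -2.14 and -3.24, against 0.18 and -0.27 in experiments 1 and 4. For any gene the 21% value is part of the difference, so a high 21% value by itself lowers the difference. The Chac1 difference over the 4 was -1.37 (SE 0.51, 95% interval -2.54 to -0.20), with an unadjusted p of 0.0272 and an adjusted p of 0.185 in limma. The SD of its 4 differences, 1.60, was larger than that of 99.8% of all genes tested.

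Trib3 and Atf3 changed sign between experiments. Trib3 differed by 1.19, -1.82, -1.48 and 1.27 in experiments 1 to 4, from 21% oxygen log2 signals of -0.48, 4.44, 2.55 and -0.93. The mean Trib3 difference was -0.21 (95% interval -1.42 to 1.01, adjusted p = 0.881 in limma), and the SD of the 4, 1.67, was larger than that of 99.9% of genes. Atf3 differed by 0.71, -2.00, -1.66 and 0.68, with a mean of -0.57 (95% interval -1.64 to 0.51, adjusted p = 0.567 in limma). The interval of Atf3 is wide enough to hold a change of more than 1 log2 unit downwards. That of Trib3 holds such a change in either direction.

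Atf5 and Ppp1r15a varied less between experiments than Trib3, Chac1 and Atf3. The Atf5 difference was -0.35 (SE 0.15, adjusted p = 0.26 in limma) and that of Ppp1r15a -0.20 (SE 0.22, adjusted p = 0.684). Cebpb read higher at 5% oxygen in every experiment: it differed by 0.54, 0.78, 0.59 and 0.28, with a mean of 0.55 (SE 0.14, 95% interval 0.22 to 0.87, adjusted p = 0.0688 in limma). Its groups overlapped, because experiments 2 and 3 read higher than experiments 1 and 4 at both oxygen levels.

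**Figure D3:**
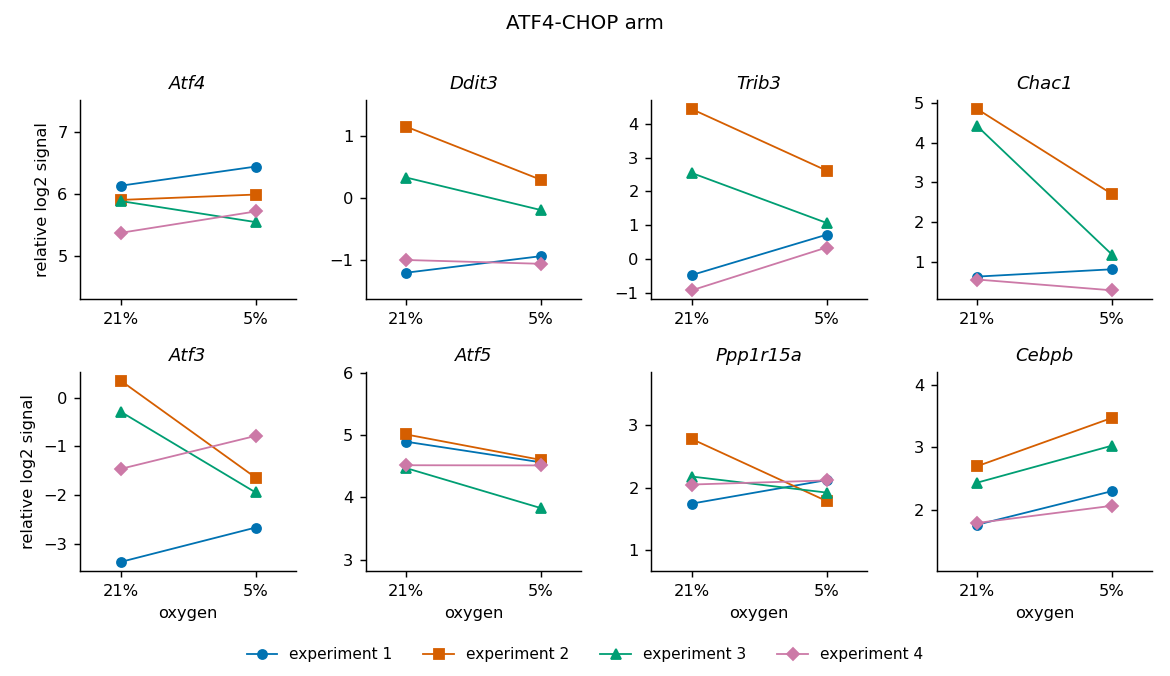
Log2 signal relative to the 75th percentile of the array (y axis, the span set per gene) at 21% and 5% oxygen (x axis) for the 8 genes of the ATF4-CHOP arm, with lines joining the arrays of each of the 4 experiments. For Trib3, Chac1 and Atf3, experiments 2 and 3 start high at 21% oxygen and slope down, and the other lines are near flat or slope up, while all 4 lines of Cebpb slope up.

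The level at 21% oxygen also followed the experiment in this arm. Normoxia array 2 was the highest of the 4 normoxia arrays for 7 of the 8 genes of the arm (87.5%), against 19.7% of all genes tested. The exception was Atf4, as read by its brighter probe. The dimmer Atf4 probe read 1.62, 2.76, 2.65 and 1.67 on normoxia arrays 1 to 4, so array 2 was the highest there too. A high normoxia array 2 was not particular to this arm. It was also the highest normoxia array for both Ero1l and Vldlr. The same held for 11 of 17 target genes of the hypoxia-inducible factors (64.7%). The median difference of the arm was 0.34, -0.92, -0.58 and 0.17 in experiments 1 to 4, beside 0.03, 0.17, -0.13 and 0.05 over all genes. In experiment 2, 6 of the 8 read lower at 5% oxygen against 37.5% of all genes, and in experiment 3, 7 of 8 against 62.7%. In experiment 1 it was 1 of 8 against 46.9%, and in experiment 4 it was 3 of 8 against 43.1%. These are descriptions of single experiments, with no replicate within each.

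The amino acid response, which uses ATF4 without the ER sensors, was read from 20 further targets (amino acid synthesis, transport and stress genes). Of the 20, 2 rose and 1 fell in limma's paired fit, against 4.25% and 1.29% of all genes. The difference was above 0 in all 4 experiments for 2 of them, against 15.3% of all genes. It was below 0 in all 4 for 6, against 12.8% of all genes. Of the 20 targets, 15 had a mean change below 0 and 5 above, with a median of -0.14. Their median differences of 0.05, -0.40, -0.40 and 0.05 in experiments 1 to 4 had the order of signs seen in the ATF4-CHOP arm, and normoxia array 2 was the highest normoxia array for 17 of the 20 (85%). Vegfa, the angiogenic growth factor gene, rose by 2.04 on the log2 scale (4.10-fold, adjusted p = 0.00445, and 0.0513 without experiment 3). Stc2, a secreted glycoprotein gene, rose by 1.35 (2.55-fold, SE 0.16, adjusted p = 0.00373). Both are also known to respond to the hypoxia-inducible factors (HIF). Sesn2, a regulator of mTORC1, fell by 0.89 (SE 0.20, adjusted p = 0.0404), from -0.47 in experiment 4 to -1.47 in experiment 2. That call ended when experiment 1, 2 or 3 was left out (adjusted p = 0.065, 0.107 and 0.182) and under quantile normalization (0.0657).

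**Figure D4:**
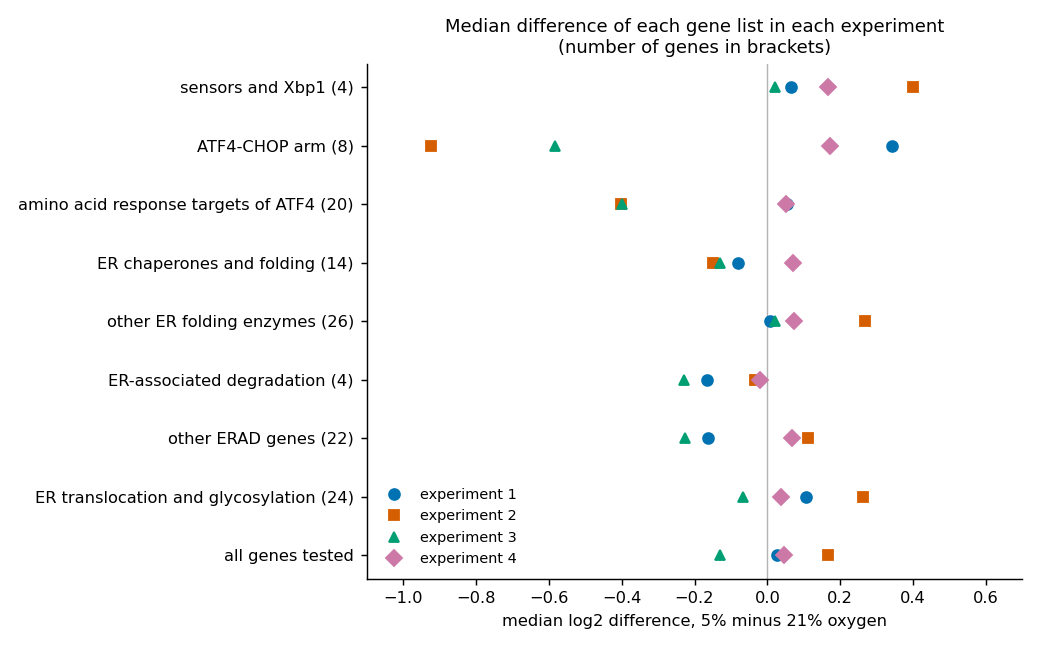
Median log2 difference (x axis, 5% minus 21% oxygen) of each gene list (rows, number of genes in brackets) in each of the 4 experiments (symbols). In the ATF4-CHOP arm experiments 2 and 3 lie at -0.92 and -0.58 and experiments 1 and 4 above 0, the amino acid targets have the same order of signs, and the chaperones stay between -0.15 and 0.07.

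The chaperones and folding factors are the classic output of the ATF6 and XBP1 branches, and 0 of 14 passed the test in either direction in limma (1 had an unadjusted p under 0.05). Hspa5 encodes BiP, the abundant ER chaperone that also holds the sensors inactive. Its log2 signal was 5.74, 5.00, 4.99 and 4.88 at 21% oxygen and 5.73, 5.29, 4.93 and 5.18 at 5%. The groups overlapped, with experiment 1 highest in both, and the Hspa5 difference was 0.13 (SE 0.14, 1.10-fold). Its 95% interval ran from -0.19 to 0.46 (adjusted p = 0.669 in limma).

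None of the other chaperones passed either. Their 95% intervals were similar in width to that of Hspa5 or wider, as for Pdia4 (-0.50 to 0.31). Hsp90b1 (GRP94) differed by 0.06 (95% interval -0.26 to 0.39), and the lectin chaperones calreticulin (Calr) and calnexin (Canx) by -0.03 (-0.34 to 0.27) and 0.16 (-0.18 to 0.51). The disulfide isomerases Pdia3, Pdia4 and Pdia6 differed by -0.14, -0.10 and 0.18. A second Pdia6 probe read -0.11 (SE 0.14), so the sign for that gene depended on the probe. Hyou1 (GRP170, a nucleotide exchange factor of BiP) differed by -0.29 (-0.69 to 0.11), and by -0.10 without experiment 2. Sdf2l1 and Creld2 each differed by -0.12, and Manf, a secreted ER stress protein, by -0.03.

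Among the J-domain partners of BiP, Dnajb9 (ERdj4) differed by -0.21 and Dnajb11 (ERdj3) by -0.26 (95% interval -0.58 to 0.06). Dnajc3, which encodes the PERK inhibitor P58IPK, came nearest to the threshold in the chaperone group. Its log2 signal was 0.26, 0.10, 0.06 and 0.38 at 21% oxygen and -0.40, -0.53, -0.44 and 0.11 at 5%. Hypoxia array 4 overlapped the normoxia arrays and the other 3 hypoxia arrays lay below all of them. The Dnajc3 difference was -0.52 (SE 0.14, 95% interval -0.84 to -0.20, adjusted p = 0.0755 in limma), and it passed in 3 of 17 other settings, with adjusted p from 0.0379 to 0.461 over all of them. The median change of the 14 genes was -0.11, beside 0.13 for the sensors and Xbp1 and -0.25 for the ATF4-CHOP arm, which became 0.07 with array weights. Over the 4 experiments the group medians had an SD of 0.10 for the chaperones, 0.17 for the sensors and Xbp1 and 0.60 for the ATF4-CHOP arm. The differences between these groups of genes are smaller than the spread of the arm, and they were not tested.

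The regulatory sequence that joins the chaperones is the ER stress element, which ATF6 binds together with NF-Y. It was searched as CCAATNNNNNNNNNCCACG on both strands (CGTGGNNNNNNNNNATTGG in reverse) in the 250 bases before the start site of each gene, from RefSeq's GRCm38.p6 annotation. Promoters matched 29 of the 32 genes, all but Atf6, Hyou1 and Manf. The element lay in 8 of the 29 (27.6%), against 35 of 27025 genes in the table (0.13%), and 7 of the 8 were among the 12 chaperone genes with a promoter (58.3%). No gene of the ATF4-CHOP arm and neither Ero1l nor Vldlr held it in this window. Each match is shown with 10 bases on either side, since these are the genes whose RNA did not pass the test; capitals mark CCAAT and CCACG, and each is written on the strand that reads CCAAT first.
Hspa5, chr2:34772015-34772053, + strand: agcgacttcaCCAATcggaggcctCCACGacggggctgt
Hsp90b1, chr10:86705628-86705666, - strand: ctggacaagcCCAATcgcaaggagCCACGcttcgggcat
Hsp90b1, chr10:86705523-86705561, + strand: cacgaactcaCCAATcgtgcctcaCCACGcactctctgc
Calr, chr8:84847065-84847103, + strand: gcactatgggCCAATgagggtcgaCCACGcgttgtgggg
Canx, chr11:50325790-50325828, - strand: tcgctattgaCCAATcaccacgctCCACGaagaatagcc
Pdia6, chr12:17266481-17266519, + strand: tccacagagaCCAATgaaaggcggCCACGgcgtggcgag
Dnajc3, chr14:118937817-118937855, + strand: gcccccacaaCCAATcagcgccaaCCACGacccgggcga
Creld2, chr15:88819510-88819548, - strand: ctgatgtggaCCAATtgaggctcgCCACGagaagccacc
Syvn1, chr19:6046522-6046560, + strand: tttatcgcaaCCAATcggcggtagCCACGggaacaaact

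The whole Hspa5 window (chr2:34771840-34772089, + strand, GRCm38.p6) is shown because it alone among the 29 also held the core of the unfolded protein response element, TGACGTG (either strand; 1.85% of all genes). Of the 312 tested genes with that core, 7.05% were called higher and 0.641% lower in limma. Among all tested genes with a promoter the shares were 5.02% and 1.42%, and the difference was not tested. Capitals mark that core, and further downstream the ER stress element.
Hspa5 promoter: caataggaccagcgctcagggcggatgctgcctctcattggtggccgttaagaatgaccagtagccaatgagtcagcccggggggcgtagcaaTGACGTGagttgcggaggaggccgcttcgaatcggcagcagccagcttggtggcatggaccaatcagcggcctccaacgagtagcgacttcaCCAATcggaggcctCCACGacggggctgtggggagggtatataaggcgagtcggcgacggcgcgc

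Genes that share the element were then read together, members or not. Of the 35 genes with the ER stress element, 21 were tested; 0 rose and 1 fell in limma, beside 5.02% higher and 1.42% lower among the 12728 tested genes with a promoter in the table. The median change of the 21 was 0.13. The gene that fell, the calreticulin paralogue Calr4, is no member and is named because it was the only call. It fell by 0.64 (adjusted p = 0.0445 in limma) and passed in 7 of 16 other settings. Among others, the call ended without any 1 of the 4 experiments (adjusted p 0.0572 to 0.191) and with normexp background correction (-0.08, adjusted p = 0.823). No Calr4 probe was above background on all arrays.

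Of the 4 ERAD genes, 0 passed the test in limma and Herpud1 had an unadjusted p under 0.05. Herpud1 encodes the membrane protein HERP, which gathers the ubiquitin ligase complex that removes misfolded proteins. Its log2 signal was 1.17, 2.87, 2.40 and 1.16 at 21% oxygen and 1.04, 2.04, 1.05 and 1.09 at 5%. Experiments 2 and 3 began high at 21% oxygen and read lower at 5%, by -0.83 and -1.35, while experiments 1 and 4 differed by -0.13 and -0.07. This is the order of experiments seen for Chac1, Trib3 and Atf3. The Herpud1 difference was -0.60 (SE 0.23, 95% interval -1.12 to -0.07, adjusted p = 0.195 in limma). Edem1, which delivers misfolded glycoproteins, differed by -0.19, and the ligase subunits Sel1l and Syvn1 (HRD1) by 0.10 and -0.12.

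Herpud1, Chac1, Atf3 and Vldlr were the 4 of 29 genes (13.8%, against 3.91% of all genes) with the C/EBP-ATF response element, the composite site that ATF4 binds with C/EBP proteins, searched as TGATGNAA on both strands. Vldlr is 1 of the 2 genes that rose and the other 3 did not pass the test. Trib3 and Ddit3, which also varied widely among the experiments, had no match in this window. Of the 345 tested genes with this element, 6.96% were called higher and 2.9% lower in limma. This compares with 5.02% and 1.42% of all tested genes with a promoter, and the difference was not tested. Capitals mark the fixed bases, and each window is written on the strand that reads TGATG, which for all 4 is opposite to the gene.
Chac1, chr2:119351039-119351066, - strand: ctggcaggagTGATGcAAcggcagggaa
Atf3, chr1:191183426-191183453, + strand: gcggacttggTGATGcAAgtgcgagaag
Herpud1, chr8:94386307-94386334, - strand: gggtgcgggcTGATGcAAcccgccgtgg
Vldlr, chr19:27216810-27216837, - strand: ctaggagcgcTGATGcAActattgctgc

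Ero1l and Vldlr rose at 5% oxygen in all 4 experiments. Ero1l (Ero1a in RefSeq) encodes the ER oxidase that passes electrons from protein disulfide isomerase to molecular oxygen. Its log2 signal was -0.41, 1.57, 1.17 and -0.26 at 21% oxygen (mean 0.52 ± 1.00 SD, n = 4) and 1.81, 3.19, 3.01 and 1.20 at 5% (2.30 ± 0.96 SD, n = 4). The groups overlapped, since hypoxia array 4 lay below normoxia array 2. Within each experiment the hypoxia array was higher, by 2.22, 1.62, 1.84 and 1.46. The mean difference was 1.79 (SE 0.16, 95% interval 1.41 to 2.16), a 3.45-fold rise (adjusted p = 0.00176 in limma). Without the block the same difference had an adjusted p of 0.32, the only setting of 17 in which it did not pass.

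Vldlr encodes the very low density lipoprotein receptor, which also receives reelin in the developing brain. Its log2 signal was 2.78, 3.89, 3.45 and 2.47 at 21% oxygen (mean 3.15 ± 0.64 SD, n = 4) and 4.20, 4.91, 4.18 and 3.68 at 5% (4.25 ± 0.51 SD, n = 4). The groups overlapped, and within each experiment the hypoxia array was higher, by 1.42, 1.03, 0.74 and 1.21. The mean difference was 1.10 (SE 0.16, 95% interval 0.74 to 1.46), a 2.14-fold rise (adjusted p = 0.00772 in limma, 0.336 without the block). A second Vldlr probe read 1.72, 0.43, 1.63 and 1.21 in the 4 experiments (mean 1.25, SE 0.22).

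Both genes are known HIF targets as well as genes tied to ER stress. In the HIF list of 17 targets, chosen with earlier results of these data known, 15 rose in limma, against 4.25% of all genes. The median change of the list was 2.32, while the other 30 members had a median of -0.12. Whether HIF raised Ero1l and Vldlr was not tested. The core of the hypoxia response element, ACGTG on either strand, lay in the Ero1l window and in 8 of the 29 in all (27.6%), against 18.5% of all genes. The others with the core were Ppp1r15a, Hspa5, Calr, Pdia6, Dnajb9, Dnajc3 and Herpud1, none of which passed the test. Vldlr had no match in this window. In Hspa5 the core overlaps TGACGTG. Genes with the core in this window were called higher at 5.43% (161 of 2963), beside 5.02% of all tested genes with a promoter. The Ero1l match is shown with the core in capitals, on the strand opposite to the gene.
Ero1l, chr14:45318621-45318645, + strand: tcccctgcggACGTGcagcggcgcg

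Other parts of the pathway were read from further lists. Of 14 other sensors and regulators of the unfolded protein response, 0 rose and 1 fell in limma: Atf6b, a paralogue of Atf6, fell by 0.61 (SE 0.14, adjusted p = 0.0419), with every array at 5% oxygen below every array at 21%. Leaving out any 1 experiment ended that call (adjusted p 0.0893 to 0.186). Of 26 other ER folding enzymes, 2 rose and 0 fell. Fkbp10, a prolyl isomerase that works on collagen, rose by 1.02 (2.02-fold, SE 0.15, adjusted p = 0.00958, and 0.0552 without experiment 3), with no overlap between the groups. Sil1, another exchange factor of BiP, rose by 0.66 (1.57-fold, adjusted p = 0.046), a call that ended without any 1 experiment (0.0868 to 0.178).

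Neither degradation nor import into the ER gave a call. Of 22 other ERAD genes, 0 passed in limma, with 4 at an unadjusted p under 0.05. The 2 with the smallest p were Derl3, a derlin, with a difference of 0.54 (adjusted p = 0.0729), and Nploc4, a cofactor of the VCP segregase, with -0.49 (adjusted p = 0.142). Of 24 genes of translocation and glycosylation, 0 passed and 0 had an unadjusted p under 0.05. Rpn2, a subunit of the oligosaccharyltransferase, differed by 0.21 (adjusted p = 0.483), and Sec61b, of the translocon, by 0.19 (adjusted p = 0.535).

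The arrays and cultures bear on all of these values. The scaling value of an array, its 75th percentile, lay between 1909 and 7352 intensity units and was lowest on both arrays of experiment 1, and between 64.4% and 73.9% of non-control spots were well above background. Normoxia array 1 was the highest normoxia array for 11 of the 14 chaperones (78.6%), against 43.4% of all genes. Markers of neural stem cells and radial glia were tested for 12 of 12 genes and none was called in limma, and their summed signal was 144 to 244 times the 75th percentile at 21% oxygen and 165 to 300 times at 5%. Some markers of other cells were called in limma. Called higher were 3 of 12 neuron, 2 of 8 astrocyte, 2 of 9 oligodendrocyte, 2 of 8 endothelial and mural and 4 of 7 meningeal fibroblast genes. Of all genes 4.25% were called higher and 1.29% lower. In the last 2 of these marker lists 3 and 2 genes were called lower. The summed signals of the lists overlapped between the groups for astrocytes (65.3 to 133 and 88.8 to 174) and oligodendrocytes (68.7 to 112 and 86.6 to 126). They also overlapped for endothelial and mural cells (3.54 to 14.3 and 4.31 to 7.81) and meningeal fibroblasts (1.71 to 6.14 and 2.48 to 10.5). For neurons they met at the edge (18 to 20 and 20 to 24.8). These ranges leave out the pairing. Within experiments 1 to 4 the median difference was above 0 for neurons (0.42, 0.28, 0.25 and 0.28). It was also above 0 for astrocytes (0.20, 0.46, 0.58 and 0.76), oligodendrocytes (0.33, 0.11, 0.54 and 0.75) and meningeal fibroblasts (0.44, 1.58, 1.08 and 1.74). Endothelial and mural genes were below 0 (-0.36, -0.0014, -0.20 and -0.18), and the other marker lists varied in sign. Over all genes it was 0.03, 0.17, -0.13 and 0.05. The endothelial marker Cdh5 and the astrocyte marker Gjb6 did not pass the filter on dim probes. Of the microglial and leukocyte markers, 0 of 8 were called, and 3 of 8 erythroid markers could be tested, with 0 called. The part of these cells in the changes of Ero1l and Vldlr was not tested.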

How the data were processed

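RNA from 8 cultures of mouse embryonic neural stem cells, 4 at each oxygen level, was measured on Agilent SurePrint G3 mouse arrays in 1 colour (Cy3). The RNA integrity number was above 7, per the labels. Spot intensity values, as deposited, came from Agilent Feature Extraction (version 10.7.3.1 in the submitters' processing notes). Their background had been subtracted, per the file headers. The authors' deposited value table holds log2 values. It equals log2 processed signal less the 75th percentile of the array and the median of the probe, within 0.01 for 99.72% to 99.76% of probes, with column medians of -0.12 to 0.25, and served as an alternative. Scale, centring and direction were thus known.

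The values used were log2 processed signal minus the 75th percentile of the array over non-control spots. Control and outlier spots were dropped, and repeat spots of a probe were averaged. A probe was kept if 3 or more of the 4 arrays of a group read it well above background, which left 37669 of 55681. Accessions were named through RefSeq (27235 probes named, 28446 not), and the brightest probe stood for each gene. Among the 32 members 4 had more than 1 kept probe, and none was saturated. The design of the array used another build, so coordinates are printed for promoters only, as RefSeq's table gives them.

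Groups were compared with limma 3.58.1 in R 4.3.3 (lmFit and eBayes), with the replicate number of the sample titles as a block and Benjamini-Hochberg adjustment over all 26874 genes. Deviations of same-numbered arrays from the group means correlated at 0.758, 0.515, 0.379 and 0.661 across genes for replicates 1 to 4. The highest correlation with an array of another number in the other group was -0.0612, 0.306, 0.306 and -0.181. Same-numbered arrays were thus the most alike, by a small margin for replicate 3. A missing value, present in 44 genes but in no member, was left out of the fit. The procedure was tested on simulated data. There the paired fit recovered 1 of 150 genes set at 1.5-fold (0.667%) and 54 of 150 at 2-fold (36%). It recovered 114 of 150 at 3-fold (76%) and 140 of 150 at 5-fold (93.3%). Failing the test therefore does not by itself exclude a difference of 1.5-fold or 2-fold. The interval of each member from the paired fit limits it further, and these intervals differ in width. That of Hspa5 (-0.19 to 0.46 in log2 units) stopped short of 1.5-fold in both directions. That of Trib3 (-1.42 to 1.01) held 2-fold in both directions. All arrays lay on 1 slide and shared 1 scan, so no batch could be fitted. The members and lists were chosen with earlier results of these data known. Every member is named, with values on all arrays for the genes past the threshold, the sensors, Xbp1, Atf4, Ddit3 and Hspa5, and array values of Chac1, Dnajc3 and Herpud1 were added after they had been seen. From other lists, up to 4 genes past the threshold are named, or else the 2 with the smallest p. The HIF targets and the cell markers are the exception, and their called genes are given as counts. Alternatives changed the block, background correction (normexp with an offset of 50 on the median spot signal), scaling, filter, probe summary, spot flags, moderation and array weights, and left out each experiment.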

Additional observations from a re-analysis of the deposited data

Results flagged for a closer look

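Each member's 4 arrays per group and its 4 within-experiment differences were examined for a single value far from the other 3, which made 96 groups, of which 6 were marked. Chance marks about 1 in 20 such groups. Among the log2 signals, Xbp1 stood apart on normoxia array 1 at 3.78 (nearest other value 3.36) and Hspa5 on the same array at 5.74 (nearest 5.00). Atf5 stood apart on hypoxia array 3 at 3.83 (nearest 4.51). On hypoxia array 2, Pdia4 was low at 0.68 (nearest 1.62) and Herpud1 was high at 2.04 (nearest 1.09). Among the differences, Hyou1 in experiment 2 was -0.87, with the nearest other at -0.18. None of these 6 genes passed the threshold in the paired fit.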

How the results depend on the processing

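Over 17 alternatives, Ero1l (1.64 to 1.89) and Vldlr (0.99 to 1.22) passed in 16 and lost the call without the replicate block, where 0 members, 24 genes higher and 0 lower were called. Cebpb also passed upwards with trend and robust moderation (adjusted p = 0.0138, range 0.0138 to 0.818). The count of members lower became 1 in 4 settings: Dnajc3 with duplicateCorrelation, trend and robust moderation, or array weights, and Chac1 with normexp (-1.38, adjusted p = 0.046, range 0.046 to 0.862). The cause was not tested. Of the members' values 22 changed sign without being called, Trib3 in 3 settings (-0.70 to 0.55), and no called value reversed. The medians of the role groups moved by less than their spread between experiments, that of the ATF4-CHOP arm running from -0.44 to -0.01 as each experiment was left out and turning to 0.07 with array weights. Over all genes, calls higher numbered 329 to 1082 and calls lower 60 to 367 when 1 experiment was left out, the fewest higher without experiment 3. Without the filter on dim probes they numbered 379 and 71, with more genes tested, and calls lower rose to 647 with trend and robust moderation and 624 with array weights. Median scaling gave 70.3% of calls higher, beside 76.7%. The number of arrays limits the precision: the 95% interval of Hspa5, -0.19 to 0.46, does not exclude a small change.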

Other observations

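Folding systems outside the ER gave few calls. Of 14 cytosolic heat shock genes tested, 1 rose in limma's paired fit: Hspb1, a small heat shock protein gene, rose by 0.79 (SE 0.16, adjusted p = 0.0314), a call that ended without experiment 1, 2 or 3 (0.133, 0.0905 and 0.129). Of 12 mitochondrial chaperones and proteases, 0 passed. The 2 with the smallest p were the matrix protease gene Lonp1, with a difference of 0.58 (adjusted p = 0.0893), and Clpp, another matrix protease gene, with -0.23 (adjusted p = 0.385).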
